A study of Mus musculus with 8 samples.

Results

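Rab GTPases are small membrane-bound switches that direct vesicles between the compartments of the cell. A Rab is active when bound to GTP. Exchange factors load the GTP, GTPase-activating proteins speed its hydrolysis, escort proteins present new Rabs for attachment of their lipid anchor, and GDP dissociation inhibitors lift inactive Rabs off membranes. In the mouse oocyte, vesicles that carry Rab11a help to organise the cytoplasmic actin network, and Rab3a and Rab27a have been linked to exocytosis of the cortical granules at fertilisation. The genes described here are those whose platform symbol is Rab, a number and at most 1 further letter. The rule found 59 of the 18193 genes that the array names, and all 59 Rab symbols of that form in the RefSeq mouse gene table were measured. Among their 132 probe sets, the one whose signal averaged highest over the 8 arrays stands for each gene.

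The study compared fully grown oocytes, still at the germinal vesicle stage, from 4 mice of the genotype Dicer knockout and 4 wild-type mice, all females of the strain 129/C57BL6 treated with equine chorionic gonadotropin. Cumulus cells were removed by pipetting, and RNA of 20 oocytes per mouse was amplified and read on 1 Affymetrix mouse genome array. The question is how maternal RNA differs in oocytes without Dicer, the nuclease that makes microRNAs and small interfering RNAs. The labels give no age and do not name the deleted exons or the driver of the deletion. Arrays are called KO1 to KO4 and WT1 to WT4.

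Values are log2 signals, and differences are Dicer KO minus WT on that scale. The medians of the 8 arrays ranged over 6.35 to 6.43, and precision is limited by how few arrays there are. Both Dicer1 probe sets read higher in Dicer KO, at 14.32 ± 0.044 against 13.13 ± 0.125 in WT and at 12.31 ± 0.131 against 11.62 ± 0.166 (SD, n = 4 each). Whether they lie in the deleted part was not tested, so they do not check the genotype. At adjusted p under 0.05 (limma), 8.18% of all genes tested rose in Dicer KO and 12.8% fell. Of 13 oocyte markers, 0 rose and 4 fell, and the list averaged between 13.10 and 13.19 on the KO arrays and between 13.20 and 13.31 on the WT arrays. Of 18 cumulus and granulosa markers, 0 rose and 9 fell, with a summed linear signal of 4797 to 6141 on the KO arrays and 7176 to 10511 on the WT arrays. Of 18 theca, stroma, vessel and blood markers, 1 rose and 3 fell, with sums of 4527 to 5955 on the KO arrays and 7317 to 8900 on the WT arrays. Array signals carry no zero, and the part of such cells in the Rab results was not tested. Fewer cells of a type and less RNA per cell cannot be told apart in these samples. As a guide to dim signals, 9 probe sets of 3 Y-linked genes, which a female oocyte cannot transcribe, read between 2.96 and 5.52.

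Of the 59 Rab genes, 5 rose and 10 fell in Dicer KO oocytes (limma, adjusted p under 0.05 over all probe sets). The 5 that rose were Rab11b, Rab9b, Rab3a, Rab44 and Rab30. The 10 that fell by their representative probe sets were Rab29, Rab3b, Rab8b, Rab8a, Rab4a, Rab11a, Rab3d, Rab31, Rab32 and Rab33a. Rab3d, Rab8a and Rab8b had another probe set of the opposite sign, which in Rab8a passed the threshold. The share that rose was 8.47% against 8.18% of all genes tested, the share that fell was 16.9% against 12.8%, and the share past the threshold either way was 25.4% against 21.0%. These shares lie near those of all genes. The median difference was -0.03 over the Rab genes and 0.00267 over all genes, and the median size of a difference, sign set aside, was 0.166 over the Rab genes and 0.157 over all genes. In 18 Rab genes (30.5%), against 26.2% of all genes, the 4 KO values and the 4 WT values did not overlap. Of those past the threshold, Rab11b, Rab29 and Rab3b differed by at least 2-fold, and Rab9b, whose WT signals were dim, by 1.99-fold. For the other 44 Rab genes the differences lay between -0.87 and 0.42, and 34 of them were smaller than 0.2 in size. Among these genes Rab20, Rab39 and Rab42 read within the range of the Y-linked probe sets on every array, and whether they are expressed was not tested.

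**Figure D1:**
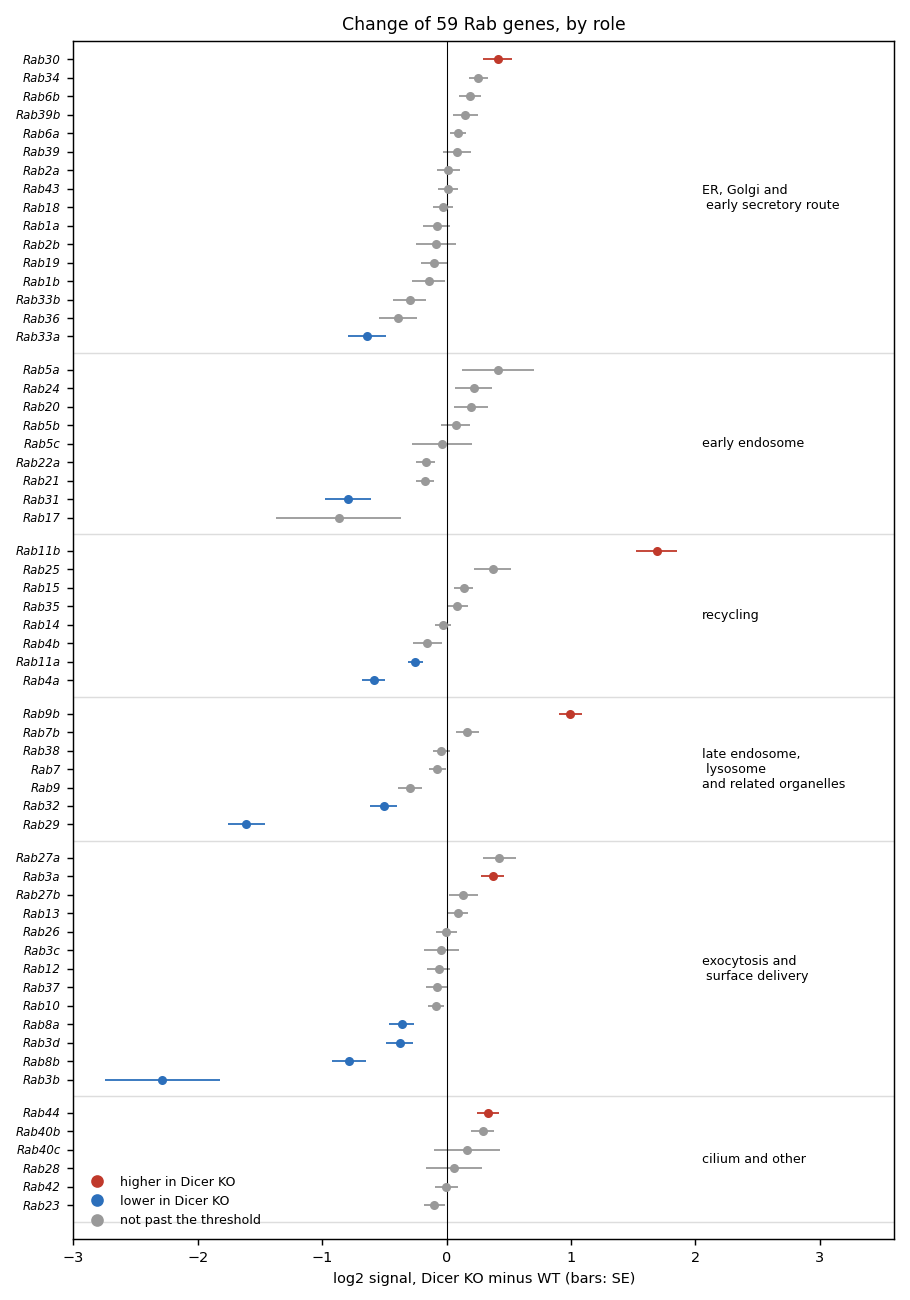
Difference in log2 signal (Dicer KO minus WT, horizontal axis) for each of the 59 Rab genes, grouped by the membrane route each is best known for, with points for the representative probe set and bars for the SE. The 5 red points on the right passed the threshold as higher, the 10 blue points on the left as lower, and most grey points lie close to 0.

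The plot of signals per array shows all 15. In 13 of them the groups did not overlap, and the exact two-sided permutation p was 0.0286, the smallest that 4 arrays against 4 can give. Groups that do not overlap, as in 26.2% of all genes, always give this p. The 15 genes were called on the same arrays, so it is no separate support. In the remaining genes, Rab31 and Rab3b, the groups overlapped and the exact two-sided permutation p was 0.0571. With 1 array left out at a time, 7 of the 15 kept the call throughout, namely Rab11b, Rab29, Rab9b, Rab4a, Rab8b, Rab3b and Rab32. The count of rises was 3 instead of 5 without KO2, KO4 or any 1 WT array, and the count of falls was 6 instead of 10 without KO4.

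**Figure D2:**
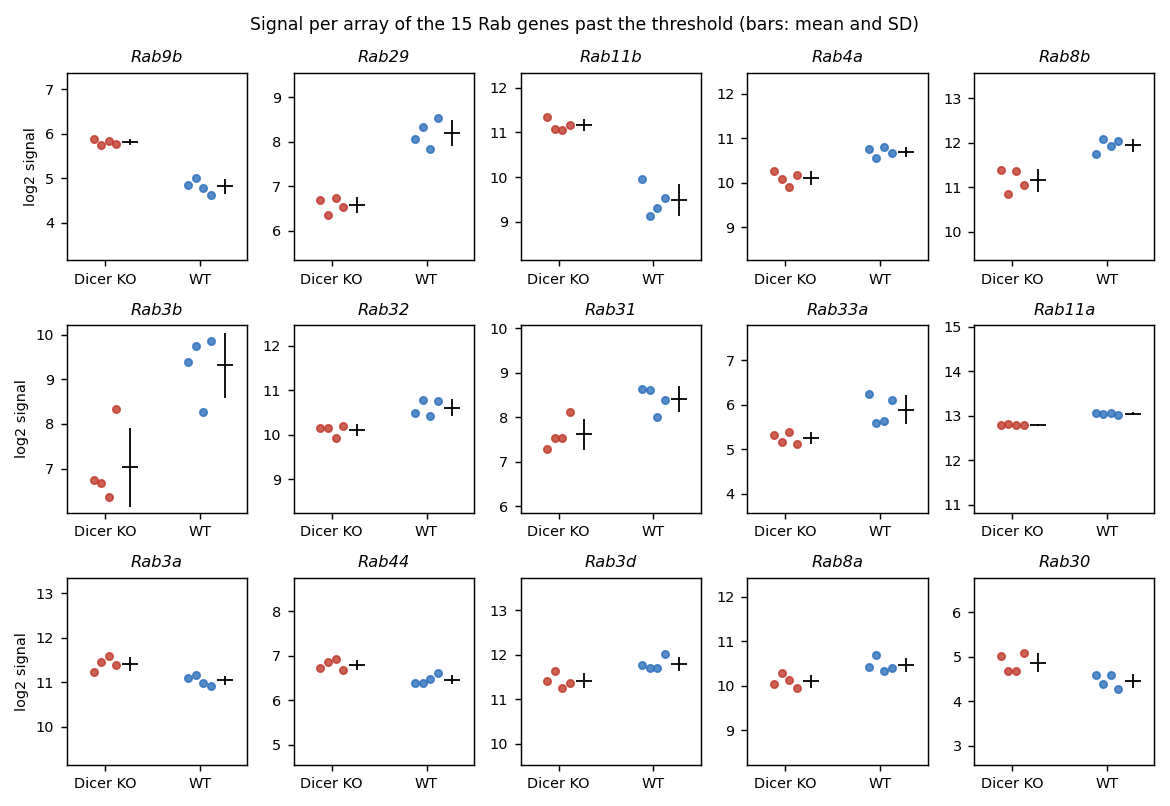
Log2 signal (vertical axis, the same span of units in every panel) on each of the 4 Dicer KO arrays in red and the 4 WT arrays in blue, for the 15 Rab genes past the threshold in order of adjusted p, with bars for mean and SD. The groups are far apart for Rab11b, Rab29 and Rab9b, while the Rab11a groups are 0.25 apart with little spread in either.

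The recycling Rabs return internalised proteins to the cell surface. Of 8 measured, Rab11b rose, Rab4a and Rab11a fell, and 5 did not pass (-0.16 to 0.37). Over all genes 8.18% rose and 12.8% fell, and counts in groups this small serve only to list the genes. Rab11b and Rab11a, close paralogues of the slow recycling endosome, moved in opposite directions.

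Rab11b read 11.35, 11.08, 11.06 and 11.17 on KO1 to KO4, against 9.95, 9.12, 9.30 and 9.54 on WT1 to WT4. All KO arrays lay above all WT arrays, and WT1 was the highest WT array. The difference was 1.69 ± 0.164 (SE), or 3.22-fold (adjusted p = 0.000158). A second Rab11b probe set rose too, by 0.85 ± 0.118 (SE, adjusted p = 0.00116). The third probe set differed by 0.16 (adjusted p = 0.339), with means of 4.75 in KO and 4.59 in WT, inside the range of the Y-linked probe sets. The gene table names 2 pseudogenes of Rab11b, Rab11b-ps1 on chromosome 1 and Rab11b-ps2 on chromosome 19, while Rab11b itself lies on chromosome 17. The annotation gives 0 probe sets to them as a single symbol, and whether the Rab11b probe sets also read these copies was not tested.

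Rab11a read 12.79, 12.82, 12.78 and 12.79 on the KO arrays, against 13.07, 13.03, 13.07 and 13.02 on the WT arrays. The groups did not overlap, and the arrays within each were close together, with SDs of 0.0178 in KO and 0.0248 in WT. The difference was -0.25 ± 0.0601 (SE, adjusted p = 0.0193), and without KO4 it missed the threshold (adjusted p = 0.0509). The other Rab11a probe set differed by -0.26 (adjusted p = 0.0662). The change of Rab11b minus that of Rab11a was 1.94 ± 0.190 (SE), with no overlap between the groups of arrays in this difference (exact two-sided permutation p = 0.0286). Both genes' groups were already apart in opposite directions, so this outcome was fixed in advance and is no separate support. Close paralogues are here Rab genes that share a number, and other relatives were not paired. The 11 such pairs with a called gene or its paralogues were compared after the values were seen. Benjamini-Hochberg adjustment over them gave a permutation p of 0.0629 for this pair.

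Rab4a, of the rapid route from early endosomes, read 10.27, 10.09, 9.91 and 10.16 on the KO arrays, against 10.75, 10.55, 10.81 and 10.67 on the WT arrays. All KO arrays were below all WT arrays, by -0.59 ± 0.0946 on average (SE, adjusted p = 0.00263), and its other probe set fell by the same amount (-0.59, adjusted p = 0.00159). Rab4b, its paralogue, read 9.20, 8.79, 8.91 and 8.998 in KO, against 9.27, 8.86, 9.23 and 9.17 in WT. Its groups overlapped, and the difference of -0.16 did not pass (adjusted p = 0.436). The change of Rab4b exceeded that of Rab4a by 0.43 ± 0.0827 (SE, exact two-sided permutation p = 0.0286, or 0.0629 after Benjamini-Hochberg adjustment over the 11 pairs).

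Late endosomes and lysosomes receive material for degradation, and some Rabs of this group serve related organelles such as melanosomes. Of 7 measured, Rab9b rose, Rab29 and Rab32 fell, and 4 did not pass (-0.29 to 0.17), among them Rab7, the main Rab of late endosomes (-0.07), and Rab38 (-0.04). The shares over all genes were 8.18% higher and 12.8% lower.

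Rab29, a Rab of the trans-Golgi and lysosomes that recruits the kinase Lrrk2, read 6.69, 6.35, 6.74 and 6.53 on the KO arrays, against 8.06, 8.34, 7.84 and 8.52 on the WT arrays. No KO array came within 1 log2 unit of a WT array. The difference was -1.61 ± 0.149 (SE, adjusted p = 0.000126), a signal 3.06-fold higher in WT. Rab7b, on the same chromosome as Rab29 in the gene table, differed by 0.17 (adjusted p = 0.288).

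Rab9b, a relative of the Rab that carries receptors from late endosomes to the trans-Golgi, read 5.89, 5.74, 5.84 and 5.77 on the KO arrays, against 4.85, 5.01, 4.78 and 4.62 on the WT arrays. The KO arrays formed a tight group above all WT arrays, whose values lie inside the range of the Y-linked probe sets. The difference was 0.99 ± 0.091 (SE), or 1.99-fold (adjusted p = 0.000118). A pseudogene, Rab9b-ps1, is named on chromosome X, where Rab9b also lies. Rab9 read 10.29, 10.21, 10.33 and 10.44 in KO, against 10.87, 10.59, 10.49 and 10.49 in WT. Its groups did not overlap, yet the difference of -0.29 missed the threshold (adjusted p = 0.078). The change of Rab9b exceeded that of Rab9 by 1.29 ± 0.113 (SE, exact two-sided permutation p = 0.0286, or 0.0629 after Benjamini-Hochberg adjustment over the 11 pairs). The groups of both genes were already apart in opposite directions, so this permutation p was fixed in advance.

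Rab32, which with Rab38 serves the making of melanosomes, read 10.15, 10.15, 9.92 and 10.21 on the KO arrays, against 10.49, 10.79, 10.41 and 10.75 on the WT arrays. All KO arrays were below the lowest WT array. The difference was -0.50 ± 0.107 (SE, adjusted p = 0.0112).

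The stretches upstream of the start sites of Rab9b, Rab29 and Rab11b are shown because these are the genes with the lowest adjusted p. They are RefSeq sequences of GRCm38.p6, given 5′ to 3′ on the strand of the gene, and end at the base before the annotated gene. Capitals mark matches to CANNTG, the E-box letters, which read the same on both strands. The Rab9b stretch is chrX:136868557-136868806 (minus strand), that of Rab29 is chr1:131867027-131867209 (plus strand), and that of Rab11b is chr17:33760487-33760736 (minus strand).
Rab9b: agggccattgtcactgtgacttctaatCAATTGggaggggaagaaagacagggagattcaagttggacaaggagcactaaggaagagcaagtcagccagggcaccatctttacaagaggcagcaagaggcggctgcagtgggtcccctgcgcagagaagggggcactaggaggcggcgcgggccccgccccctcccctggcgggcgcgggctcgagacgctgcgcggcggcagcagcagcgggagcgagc
Rab29: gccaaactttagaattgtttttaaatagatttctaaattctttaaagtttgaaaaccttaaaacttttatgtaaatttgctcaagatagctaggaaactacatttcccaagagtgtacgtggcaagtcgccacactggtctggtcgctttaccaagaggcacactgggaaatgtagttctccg
Rab11b: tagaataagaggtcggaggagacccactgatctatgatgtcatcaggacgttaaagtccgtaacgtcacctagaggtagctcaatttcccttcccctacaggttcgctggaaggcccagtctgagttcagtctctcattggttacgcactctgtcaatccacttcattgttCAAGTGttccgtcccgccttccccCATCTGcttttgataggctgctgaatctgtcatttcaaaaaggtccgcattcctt
The Rab9b stretch holds 1 match, that of Rab11b holds 2 and that of Rab29 holds 0. G and C make up 64.4% of the Rab9b stretch, 37.2% of that of Rab29 and 48.4% of that of Rab11b.

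RefSeq promoter windows of 250 bases before and 50 after a start were found for 48 of the 59 Rab genes, with 60 windows in all. Their median content of G and C was 61.2%, against 52.7% over all 32851 windows. GGGCGG, the GC box, was present, on either strand as for the other motifs, in 68.3% of the Rab windows and 35.7% of all windows. CANNTG was found in 68.3% against 72.3%, TATAAA in 6.67% against 13.6%, and TAATTG in 1.67% against 8%. Among windows of the Rab genes that rose, GGGCGG was in 2 of 4, among those that fell in 5 of 9, and among the others in 34 of 47. These matches are descriptions of the letters in the windows.

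Rabs of exocytosis and delivery to the surface carry secretory vesicles and granules to the plasma membrane. Of 13 measured, Rab3a rose, Rab3b, Rab3d, Rab8a and Rab8b fell by their representative probe sets, and 8 did not pass (-0.09 to 0.42). The shares over all genes were 8.18% higher and 12.8% lower. Other probe sets of Rab3d, Rab8a and Rab8b had the opposite sign. Among the 4 Rab3 genes, which act in regulated secretion, Rab3a rose, Rab3b fell, Rab3c did not pass and the probe sets of Rab3d differed in sign.

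Rab3b read 6.74, 6.67, 6.36 and 8.34 on the KO arrays, against 9.38, 9.74, 8.26 and 9.86 on the WT arrays. KO4 was the high KO array and WT3 the low WT array, and these overlapped. The difference was -2.29 ± 0.46 (SE, adjusted p = 0.00845), a signal 4.87-fold higher in WT and the widest gap among the 59 genes.

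Rab3a read 11.22, 11.45, 11.58 and 11.38 on the KO arrays, against 11.09, 11.17, 10.99 and 10.91 on the WT arrays. The groups did not overlap, and the difference was 0.37 ± 0.0944 (SE, 1.29-fold, adjusted p = 0.0256). Without KO2, KO3, KO4, WT3 or WT4 this probe set missed the threshold (adjusted p = 0.0538 to 0.0712). The other Rab3a probe set rose by 0.53 ± 0.0711 (SE, adjusted p = 0.000955).

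Rab3d read 11.41, 11.65, 11.25 and 11.38 on the KO arrays, against 11.76, 11.71, 11.70 and 12.02 on the WT arrays. The groups lay side by side without overlap. The difference was -0.38 ± 0.107 (SE, adjusted p = 0.0395), but the 3 other Rab3d probe sets differed by 0.20 to 0.27 (adjusted p = 0.202 to 0.231), so the direction of Rab3d depends on the probe set. Leaving out any 1 array other than KO2 ended the call (adjusted p = 0.0516 to 0.103), with differences of -0.41 to -0.30.

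Rab3c read 6.07, 5.56, 5.80 and 6.13 in KO, against 5.90, 6.0003, 6.15 and 5.70 in WT, with overlapping groups and a difference of -0.04 (adjusted p = 0.886). The change of Rab3a exceeded that of Rab3d by 0.75 ± 0.173 and that of Rab3b by 2.66 ± 0.592 (SE, exact two-sided permutation p = 0.0286 each). Against Rab3d this p was fixed in advance, as the groups of both genes were already apart in opposite directions. Over the 11 pairs of close paralogues that include a called gene, a comparison added after the values were seen, 5 had this smallest p. For Rab11b and Rab11a, Rab3a and Rab3d, and Rab9b and Rab9 it was fixed in advance. After Benjamini-Hochberg adjustment over the 11 pairs the exact permutation p of these 5 was 0.0629, so 0 pairs passed at 0.05. The other 6 pairs had unadjusted exact permutation p of 0.0571 to 0.257.

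Rab8b and Rab8a carry cargo from the Golgi to the surface and to cilia. Rab8b read 11.38, 10.84, 11.37 and 11.04 on the KO arrays, against 11.74, 12.08, 11.92 and 12.04 on the WT arrays. KO arrays were all below WT arrays, and the difference was -0.78 ± 0.134 (SE, adjusted p = 0.00355). Its other probe set, with means of 5.45 in KO and 5.25 in WT, differed by 0.20 (adjusted p = 0.361).

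Rab8a read 10.04, 10.28, 10.12 and 9.96 on the KO arrays, against 10.43, 10.70, 10.33 and 10.39 on the WT arrays. The groups lay next to each other without overlap. The difference of -0.36 ± 0.103 (SE, adjusted p = 0.0407) missed the threshold without KO1, KO3, KO4, WT1, WT2 or WT4 (adjusted p = 0.0656 to 0.105). Another Rab8a probe set passed in the opposite direction, at 6.54 in KO and 6.01 in WT (0.53 ± 0.0853 SE, adjusted p = 0.00257), and the last one differed by 0.06. No direction for Rab8a as a gene follows from these probe sets.

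Rab27a, which tethers secretory granules at the cell cortex, read 9.94, 10.36, 10.34 and 10.01 in KO, against 9.45, 9.86, 9.91 and 9.74 in WT. The KO arrays lay above all WT arrays, with a difference of 0.42 ± 0.134 (SE) that missed the threshold (adjusted p = 0.06). It passed without KO1 (adjusted p = 0.0473), while another Rab27a probe set fell by 0.62 ± 0.146 (SE, adjusted p = 0.0179).

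**Figure D3:**
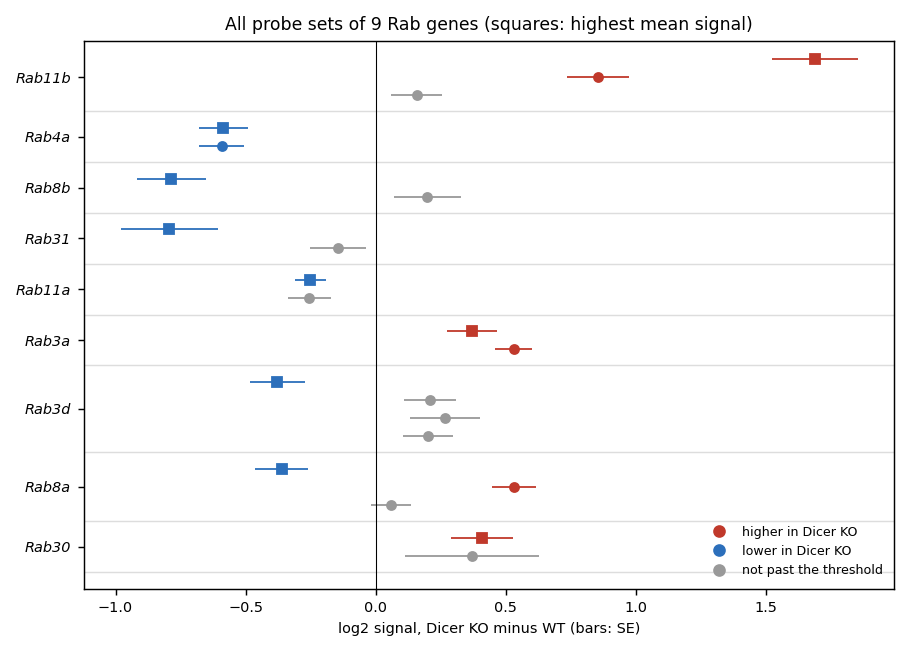
Difference in log2 signal (Dicer KO minus WT, horizontal axis) for every probe set of the 9 called Rab genes that have more than 1, with bars for the SE and squares for the representative probe set. Probe sets of Rab11b, Rab4a and Rab3a passed in the same direction, those of Rab8a passed in both, and those of Rab3d lie on both sides of 0.

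Over all 132 probe sets of the Rab genes, 9 rose and 14 fell, together 17.4% against 16.1% of all probe sets. Of the 9 called Rab genes with more than 1 probe set, Rab11b, Rab3a and Rab4a had another that passed in the same direction. In Rab3d, Rab8a and Rab8b another had the opposite sign.

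Early endosomes sort newly internalised material. Of 9 measured Rabs of this compartment, 0 rose, Rab31 fell and 8 did not pass, where 8.18% of all genes rose and 12.8% fell. Rab31, which acts between the trans-Golgi and endosomes, read 7.29, 7.53, 7.53 and 8.11 on the KO arrays, against 8.63, 8.60, 8.02 and 8.39 on the WT arrays. KO4 lay above WT3, so the groups overlapped. The difference was -0.79 ± 0.188 (SE, adjusted p = 0.0184) and missed the threshold without KO3 (adjusted p = 0.0529) or WT2 (0.0539). Its other probe set differed by -0.14 (adjusted p = 0.435). Rab5a, Rab5b and Rab5c, the Rabs that drive fusion of early endosomes, differed by 0.41, 0.07 and -0.04 (adjusted p = 0.404, 0.739 and 0.94).

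Along the route from endoplasmic reticulum through the Golgi, 16 Rabs were measured. Rab30 rose, Rab33a fell and 14 did not pass (-0.39 to 0.26), where 8.18% of all genes rose and 12.8% fell. Among the 14 were Rab1a and Rab1b, which act in transport to the Golgi (-0.08 and -0.15), Rab2a (0.02) and Rab6a, of traffic within and from the Golgi (0.09).

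Rab33a, a Golgi-associated Rab, read 5.32, 5.17, 5.39 and 5.12 on the KO arrays, against 6.24, 5.59, 5.62 and 6.11 on the WT arrays. All KO values were within the range of the Y-linked probe sets and all WT values above it. The difference was -0.64 ± 0.152 (SE, adjusted p = 0.0191), and it missed the threshold without KO4 (0.0533) or WT4 (0.0553). Its paralogue Rab33b read 9.85, 9.49, 9.52 and 9.68 in KO, against 10.21, 10.05, 9.63 and 9.84 in WT. These groups overlapped, and the difference of -0.30 did not pass (adjusted p = 0.174).

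Rab30, another Golgi Rab, read 5.03, 4.69, 4.67 and 5.07 on the KO arrays, against 4.58, 4.38, 4.58 and 4.28 on the WT arrays. Every array lay within the range of the Y-linked probe sets, the only called Rab gene of which this was so. The difference of 0.41 ± 0.119 (SE, adjusted p = 0.0444) missed the threshold without KO1, KO4 or any 1 WT array (adjusted p = 0.0508 to 0.114). Rab44, a long Rab with an EF hand, read 6.72, 6.87, 6.93 and 6.68 on the KO arrays, against 6.40, 6.39, 6.48 and 6.60 on the WT arrays. Its groups were separate, and the difference of 0.33 ± 0.0852 (SE, adjusted p = 0.0258) missed the threshold without KO2, KO3, WT1, WT2 or WT3 (adjusted p = 0.0523 to 0.072). The other 5 genes set apart from the main routes, Rab23, Rab28, Rab40b, Rab40c and Rab42, differed by -0.10 to 0.29 and did not pass.

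The representative probe sets of a few Rab genes varied widely between mice of the same genotype. The SD within groups had a median of 0.150 over the Rab genes and 0.146 over all genes, and 5 Rab genes exceeded the 95th percentile of all genes, 0.412. Those were Rab17, Rab3b, Rab5a, Rab40c and Rab5c, with Rab28 next, and they are described here because of that spread, which was seen first. Rab17, known from polarised epithelia, read 5.39, 6.19, 6.23 and 6.17 in KO, against 6.89, 5.34, 6.996 and 8.22 in WT. WT2 was low and WT4 high, and the difference of -0.87 ± 0.4995 (SE) did not pass (adjusted p = 0.298). The other Rab17 probe set was much tighter, with SDs of 0.161 in KO and 0.119 in WT. The other probe sets of Rab28 (0.133 and 0.106) and Rab40c (0.209 and 0.263) also had smaller SDs than the representative ones. For these genes the wide spread was thus seen in 1 probe set only. Rab3b, Rab5a and Rab5c have 1 probe set each. Rab5a read 10.61, 9.70, 10.44 and 10.80 in KO, against 10.30, 10.50, 9.33 and 9.78 in WT. Rab5c read 10.63, 9.64, 10.62 and 10.51 in KO, against 10.81, 10.51, 10.19 and 10.04 in WT. In both genes KO2 was the lowest KO array and WT3 and WT4 were the low WT arrays.

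**Figure D4:**
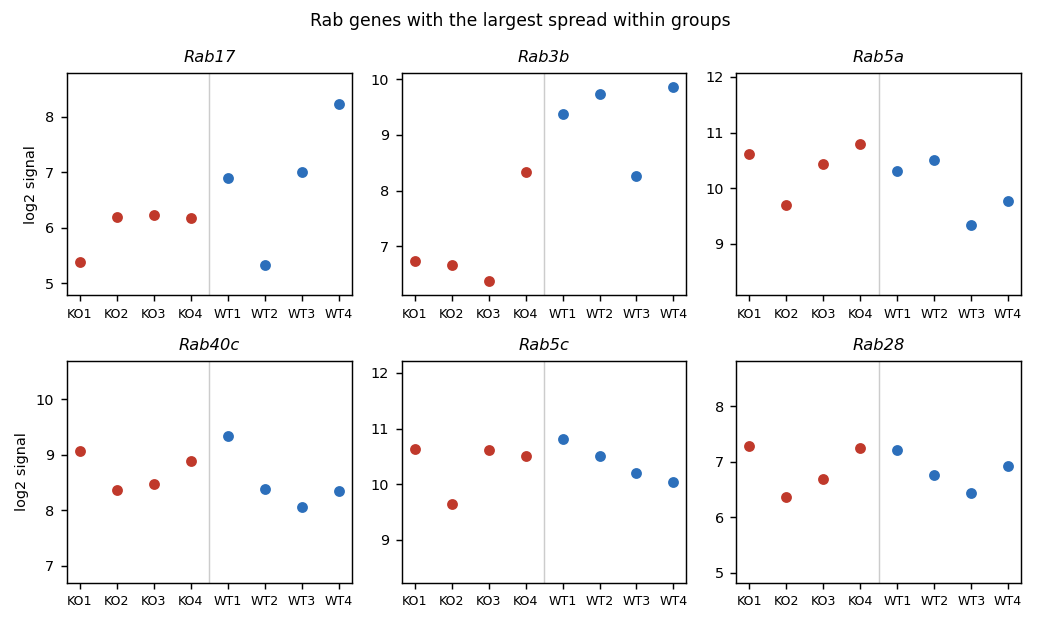
Log2 signal (vertical axis, the same span of units in every panel) on each array, KO1 to KO4 in red and WT1 to WT4 in blue, for the 6 Rab genes whose representative probe sets had the largest SD within groups. Rab5a, Rab5c, Rab28 and Rab40c have their lowest KO value on KO2, and Rab3b is the gene of the 6 whose groups passed the threshold.

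The genes that load, lift and switch Rabs were followed in 4 lists with 147 measured genes, of which 11 rose and 27 fell. That is 25.9% past the threshold, near the 21.0% of all genes (8.18% higher and 12.8% lower). In the list of escort, prenylation and GDI genes, 1 of 7 rose and 3 fell, or 57.1% past the threshold against 21.0% of all genes. The list median was -0.17 against 0.00267 over all genes. The count of falls was 1 without KO1, KO2, KO3, WT1, WT2 or WT4, and also 1 under quantile normalization or cyclic loess. Chm, the escort protein REP1, rose, with 7.61 ± 0.178 in KO and 6.52 ± 0.367 in WT (SD, n = 4 each), a difference of 1.10 ± 0.172 (SE, adjusted p = 0.00229). Its other probe set rose by 0.69 (adjusted p = 0.0071). Chml, the paralogous REP2, fell to 5.90 ± 0.325 in KO, against 6.82 ± 0.328 in WT, a difference of -0.93 ± 0.192 (SE, adjusted p = 0.00989), and its other probe set differed by 0.00488 (adjusted p = 0.979). Gdi2, a GDP dissociation inhibitor, fell by 0.24 (adjusted p = 0.0417) and in 3 of 6 probe sets, and its call ended without any 1 array (adjusted p up to 0.111).

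The list of exchange factors also holds the subunits of the TRAPP complexes and Rabl6. In it 4 of 47 genes rose and 10 fell (29.8% past the threshold, median -0.13). The TRAPP subunits Trappc2l, Trappc5, Trappc6a and Trappc11 were among the falls and Trappc13 among the rises. The rises numbered 2 without WT1, WT2 or WT4, and the falls 6 under cyclic loess. Hps1, which with Hps4 activates Rab32 and Rab38, had the largest rise in the lists, with 12.25 ± 0.112 in KO and 9.50 ± 0.509 in WT, a difference of 2.76 ± 0.215 (SE, 6.75-fold, adjusted p = 5.07e-05). A second of its 4 probe sets rose by 2.70 (adjusted p = 1.38e-05), and the others differed by 0.17 and 0.35 without passing. Dennd6a, an exchange factor for Rab14, read 11.27 ± 0.0926 in KO and 9.11 ± 0.419 in WT (2.16 ± 0.18 SE, adjusted p = 7.1e-05), while its other probe set fell by 0.95 (adjusted p = 0.0011), so its probe sets disagree. Dennd3, an exchange factor for Rab12, fell to 9.60 ± 0.143 in KO, against 10.28 ± 0.0907 in WT (-0.68, adjusted p = 0.00085). Trappc11, a subunit of the TRAPP tethering complex, fell to 8.77 ± 0.0419 in KO, against 9.26 ± 0.0262 in WT (-0.49, adjusted p = 0.000698).

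GTPase-activating proteins rose in 3 and fell in 6 of 39 cases (23.1% past the threshold, median -0.05). The falls numbered 2 without WT1 and 3 without KO3 or WT4, and the rises 5 under cyclic loess. Rabgap1, a GTPase-activating protein linked to Rab6, read 10.33 ± 0.515 in KO and 8.74 ± 0.583 in WT (1.60 ± 0.314 SE, adjusted p = 0.00744), in 1 of its 4 probe sets. Tbc1d20, which acts on Rab1, rose by 0.55 (adjusted p = 0.0143), in 1 of 3 probe sets. Evi5, a Rab11-binding protein with a TBC domain, fell by 0.47 (adjusted p = 0.00121) and by 0.51 in its other probe set (adjusted p = 0.00109). Tbc1d2b, also of the TBC family, fell by 0.47 (adjusted p = 0.00601). Rab3gap1, a subunit of the Rab3 GTPase-activating complex named after its values were seen, fell by 0.62 (adjusted p = 0.0223), and missed the threshold without KO2, WT1 or WT4 (adjusted p up to 0.0559).

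Effectors, the proteins that bind an active Rab and act for it, rose in 3 and fell in 8 of 54 cases (20.4% past the threshold, median -0.01). Rilp, the Rab7 effector that recruits dynein to lysosomes, read 9.71 ± 0.103 in KO and 8.92 ± 0.199 in WT (0.80 ± 0.106 SE, adjusted p = 0.000954). Myrip, which links Rab27a to myosin, rose by 0.48 (adjusted p = 0.00252). Rph3al, an effector of Rab3 and Rab27, fell by 0.82 in its representative probe set (adjusted p = 0.00229) and rose by 0.31 in the other (adjusted p = 0.0119), so no direction is given for the gene. Ocrl, a phosphoinositide phosphatase of endosomes, fell by 0.80 (adjusted p = 0.00354), in 1 of 3 probe sets. Named after their values were seen were the effectors Rims1 of Rab3 and Rab11fip1 of Rab11. Rims1 fell by 0.91 (adjusted p = 0.00463) and by 0.78 in its other probe set. Rab11fip1 fell by 0.46 (adjusted p = 0.00434), in 1 of 2 probe sets.

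**Figure D5:**
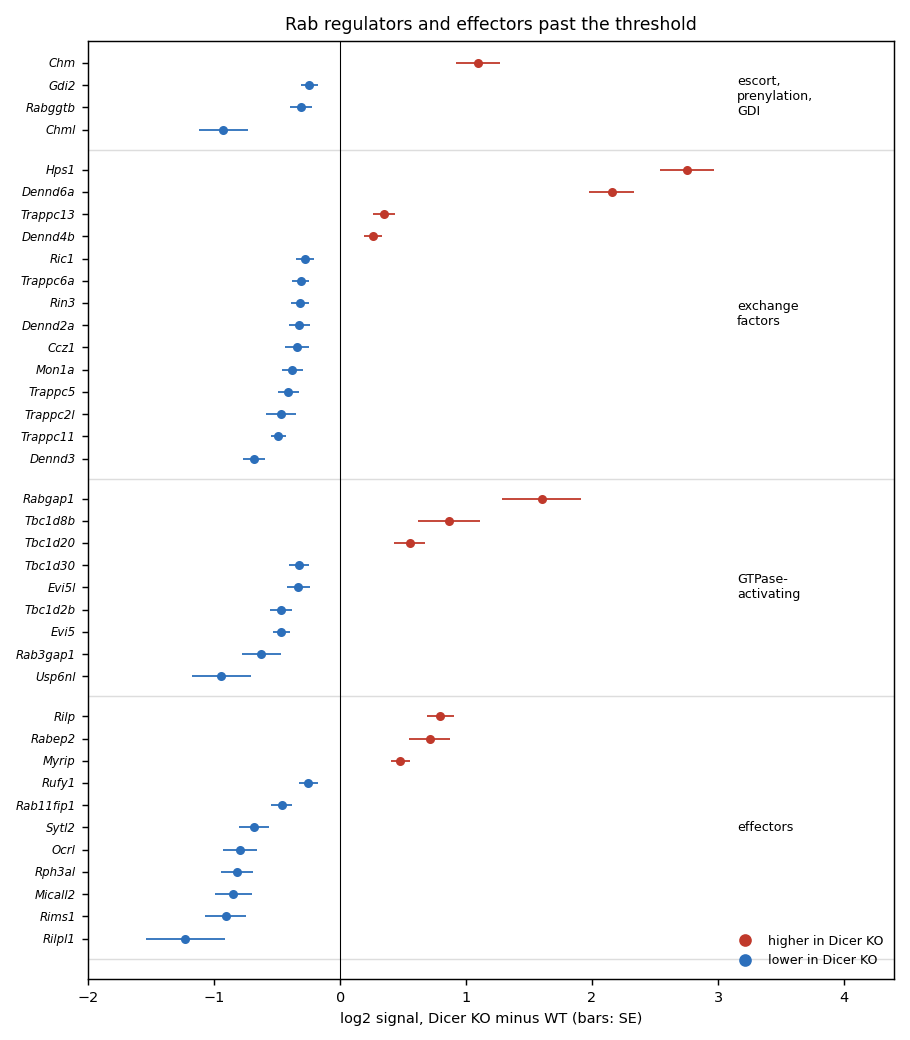
Difference in log2 signal (Dicer KO minus WT, horizontal axis) with SE for the 38 Rab regulators and effectors past the threshold, grouped by the 4 lists. The 11 red points rose, with Hps1 at 2.76 and Dennd6a at 2.16 farthest to the right, and the 27 blue points fell, most of them by less than 1.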

How the data were processed

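The authors deposited log2 signals, 1 for each probe set and array. RMA, which corrects background, normalizes across arrays and summarises probes, and Partek are named in the submitters' processing notes, without a version. Low signals are compressed by RMA, so differences of dim genes are understated. No detection calls were used. Of 45101 probe sets, 64 controls were left out. The platform annotation gave 34945 of the remaining 45037 a single gene symbol, and all 59 Rab symbols matched the RefSeq gene table of GRCm38.p6 by gene identifier. Levels of different genes were not ranked; Y-linked probe sets serve only as a guide to dim signals, and background differs between probe sets.

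Dicer KO and WT (4 arrays each, groups from the genotype label) were compared with lmFit and eBayes of limma 3.58.1 (R 4.3.3), without covariates, with Benjamini-Hochberg adjustment over all 45037 probe sets and a threshold of 0.05. The fit was tested on simulated data. Single genes were also compared by exact two-sided permutation over 70 arrangements. Each array is from another mouse per the labels, and 0 pairs of arrays were identical. The Rab genes and the gene lists were chosen with earlier results of these data known. Genes named in full were all called members, the members that share a number with them, Rab27a, and the 2 called genes of lowest p in each direction of each regulator list. Other genes were chosen after their values were seen. Alternatives were other scalings, filters, variance models, blocks by title code, probe set rules and leaving out arrays.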

Additional observations from a re-analysis of the deposited data

Results flagged for a closer look

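In each group of 4 arrays, 1 array far from the other 3 was looked for in the 59 Rab genes, as a gap to the nearest array that takes up most of the group's range. Of 118 sets of values, 7 had such an array, where chance gives about 1 in 20 (5.9). None of these genes had passed the threshold. Rab5c read 9.64 on KO2 and 10.51 to 10.63 on the other KO arrays, a gap of 0.881 of the range. Rab17 read 5.39 on KO1 and 6.17 to 6.23 on the others (0.929). For Rab18, a Rab of lipid droplets, KO2 was low at 10.81 against 10.97 to 10.98 (0.934), and WT2 was high at 11.13 against 10.90 to 10.93 (0.863). Rab37 read 6.25 on KO4 and 6.48 to 6.53 on the others (0.837). Rab15 read 7.35 on WT4 and 7.53 to 7.54 on the others (0.966). Rab7 read 13.55 on WT1 and 13.65 to 13.67 on the others (0.839).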

How the results depend on the processing

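Rab11b, Rab29 and Rab9b kept direction and call under all alternatives run for them, Rab11b between 0.90 and 1.85, Rab29 between -1.76 and -1.50 and Rab9b between 0.82 and 1.06. With single arrays left out, the Rab genes that rose numbered 3 to 5 and those that fell 6 to 11, against 5 and 10 with all arrays. The median of the Rab genes then lay between -0.0507 and 0.0101. Other settings moved the median to 0.0233 (cyclic loess), -0.0734 (only probe sets above the median signal) and 0.0107 (probe sets averaged per gene), so its sign is not fixed. With the leading number in each title's code as a fixed block, which leaves few degrees of freedom, 2 Rab genes rose and 2 fell, and 3 regulators and effectors rose and 5 fell. As a random block it left 5 and 10. Averaging probe sets per gene turned Rab3d to 0.0747 and Rab8a to 0.0759, and leaving out probe sets of suffix x, s or a turned Rab3d to 0.268; other probe sets of these genes have the opposite sign. The labels do not say what the title code means. Within the codes 24 and 27, which hold 1 mouse of each genotype, all 15 called Rab genes differed in the direction of the full comparison. For the 13 whose groups did not overlap, this outcome was fixed in advance. Rab31 and Rab3b overlapped only between KO4 and WT3, which do not share a code. The directions within codes are therefore no test of an effect of the code. Of 18 regulators and effectors named, 16 passed in each fit with 1 array fewer, all but Gdi2 and Rab3gap1. Under all alternatives run for them, 5 of the 18 kept direction and call.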

Other observations

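In 4 Rab genes whose representative probe set did not pass, another probe set did. Besides Rab27a these were Rab14, of recycling and Golgi traffic, Rab2a, of the early secretory route, and Rab37, of secretory granules. Rab14 had 1 of 7 probe sets past the threshold, at 10.999 in KO and 11.34 in WT (-0.34 ± 0.0675 SE, adjusted p = 0.00738). Rab2a had 1 of 7, at 5.82 in KO and 6.14 in WT (-0.32, adjusted p = 0.0434). Rab37 had 1 of 2, at 6.47 in KO and 6.11 in WT (0.36 ± 0.0771 SE, adjusted p = 0.0115). The gene table names a pseudogene each for Rab5a, Rab7 and Rab9b besides the 2 of Rab11b, and whether probe sets read these copies was not tested.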
